A study of Mus musculus with 4 samples.

Results

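The regions described here are 154 bins of 100 kb in which a C2C12 myotube library held more total histone H3 reads, relative to its own chromosome, than each of 3 other mouse libraries. They were chosen by the read counts themselves. Of 23313 bins on 18 autosomes, 22127 had a mean of 100 or more distinct read positions over the 4 libraries. In each library the count of a bin was divided by the library's median bin on that chromosome and expressed as log2, here called its value. A bin was a member when its myotube value was higher by 0.3 or more, which is 1.23-fold, than the value in every other library. Chromosome 8 was left out by the rule, as were the sex chromosomes. The members covered 15.4 Mb of the 2212.7 Mb of bins considered, or 0.696% of the bins.

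The myotubes were C2C12 cells, a mouse myoblast line, taken 48 h after the switch to 2% horse serum with selenium, transferrin and insulin. They were set against 38B9 cells, a mouse pro-B cell line, and against V6.5 embryonic stem (ES) cells of C57BL/6-129 background with 10 uM SB431542 for 24 h or without treatment. SB431542 inhibits the type I receptor kinases of the TGF-beta pathway. All 4 cultures were precipitated with the same lot of 1 H3 antibody, each gave 1 library, and 3 came from 1 sequencing run while the SB431542 library came from another.

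Histone H3 is 1 of the 4 core histones around which DNA is wrapped in the nucleosome, and nearly all of the genome is packed in this way. An antibody against total H3 therefore recovers DNA from most places, with differences in nucleosome density, in how well chromatin shears and in DNA copy number all entering the read count. In muscle differentiation, myoblasts leave the cell cycle, switch on muscle genes and fuse into myotubes, and the C2C12 line is a common model of these steps in culture. The positions are those of the mm8 build, for which neither an annotation nor a genome was used here, so no gene and no sequence is placed on the bins. For the same reason the named cell types were not checked against marker genes.

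The libraries held 13102915 distinct positions for myotubes, 13430107 for pro-B cells, 13852985 for SB431542-treated ES cells and 13494981 for untreated ES cells. A median bin held 400 to 682 positions in myotubes, depending on the chromosome, 470 to 591.5 in pro-B cells, 556 to 617 in SB431542-treated and 549 to 608 in untreated ES cells. Each group had a single library, so the differences have no replicate check and no p-value. Each library averages over the cells of 1 culture. The 95% intervals given below reflect the counting of reads and nothing else. No input library was used here, so H3 per DNA copy and the number of copies cannot be told apart.

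Bins of this kind were few. The same rule called 18.5% of bins higher in pro-B cells, 0.0723% higher in SB431542-treated ES cells and 0.0271% higher in untreated ES cells. Each ES library had to exceed the other of its line as well. Lower in myotubes than in every other library by the same step were 317 bins, or 1.43%. Against single libraries, myotubes were higher by 0.3 or more than pro-B cells in 14.3% of bins, than SB431542-treated ES cells in 2.99% and than untreated ES cells in 5.19%. The number of members turned on every library of the comparison. Without the SB431542 library the rule gave 461 bins, without the untreated ES library 269 and without the pro-B library 335.

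The members lay close to the threshold. The smallest of the 3 differences of a bin had a median of 0.34 and stayed under 0.4 in 130 of 154 members, and it reached 0.5 or more in 5. The 3 members just inside had smallest differences between 0.3003 and 0.3008. Of these, the bin at chr11:91300001-91400000 held 604 positions in myotubes, 470 in pro-B cells, 501 in SB431542-treated and 545 in untreated ES cells. The 3 bins just outside reached 0.2996 to 0.2999. Among them was chr17:60200001-60300000 with 683, 567, 510 and 469 positions in the same order, the neighbour of the member with the largest difference.

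Most members combined a level above the chromosome's median in myotubes with a level below it elsewhere. In myotubes their values ran from -2.07 to 0.78 with a median of 0.24, and 122 of 154 were above 0. Pro-B values ran from -3.78 to 0.12 with a median of -0.23, and 14 were above 0. In SB431542-treated ES cells the values ran from -2.68 to 0.22 with a median of -0.14 and 28 above 0, and in untreated ES cells from -2.46 to 0.18, again with a median of -0.14, and 24 above 0. The median difference was 0.46 to pro-B cells, 0.36 to SB431542-treated and 0.39 to untreated ES cells, or 1.37-fold, 1.29-fold and 1.31-fold. These values chose the bins and are given as a description.

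**Figure D1:**
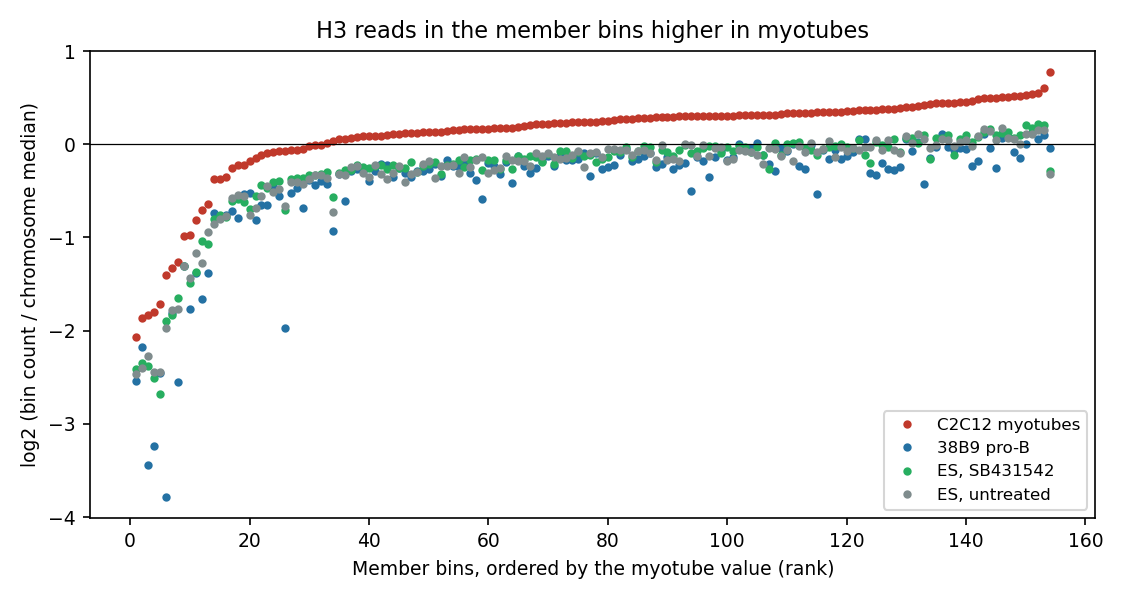
Values (log2 of the bin count over the chromosome's median bin) of all 154 members in the 4 libraries, 1 point per bin and library, ordered by the myotube value. Most bins sit just above 0 in myotubes, up to 0.78, and a tail of bins at the left goes down to -2.07 in myotubes and lower in the other libraries.

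The pro-B library was the lowest of the 4 in 103 of 154 members (66.9%), against 34.8% of all bins considered. The 2 shares are not set alike. In a member the rule keeps myotubes from being the lowest and pro-B cells from being the highest. An ES library was the closest to myotubes in most members, the SB431542-treated one in 79 and the untreated one in 57, while pro-B cells were the closest in 18. Over all bins considered, pro-B cells were the highest of the 3 other libraries in 48.0%. That share also counts bins where pro-B cells lay above myotubes, so it is no measure of closeness. The 2 ES libraries lay near each other in the members. Their values differed by -0.23 to 0.23, SB431542-treated minus untreated, with a median of 0.02, and the treated library was above the untreated one in 92 of 154. Since the rule asks for myotubes above all 3, it also favours bins where the others are low.

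The members could be separated into 2 sorts, with a limit chosen after the values were seen, by the share of positions from reads with 2 reported places in the genome among all listed positions of the bin. Such reads mark sequence present in 2 near-identical copies, and each is listed at both places. The share is taken over 1-place and 2-place positions together, so few 1-place positions raise it by construction. Of the members, 18 of 154 (11.7%) had 20% or more 2-place positions, against 4.58% of all bins considered. The 18 bins, called rich in 2-place reads below, had mean 1-place counts of 102 to 421 and a median of 229 positions over the 4 libraries. Their median values were -0.90 in myotubes, -1.73 in pro-B cells, -1.34 in SB431542-treated and -1.29 in untreated ES cells, so that myotubes were above the chromosome's median in only 1 of them. The other 136 members had a median value of 0.29 in myotubes, -0.21 in pro-B cells, -0.11 in SB431542-treated and -0.12 in untreated ES cells. These 136 bins had 211 to 682 positions with a median of 540, near the 560 of all bins considered. What part 2-place sequence has in the result of the 18 bins was not tested.

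**Figure D2:**
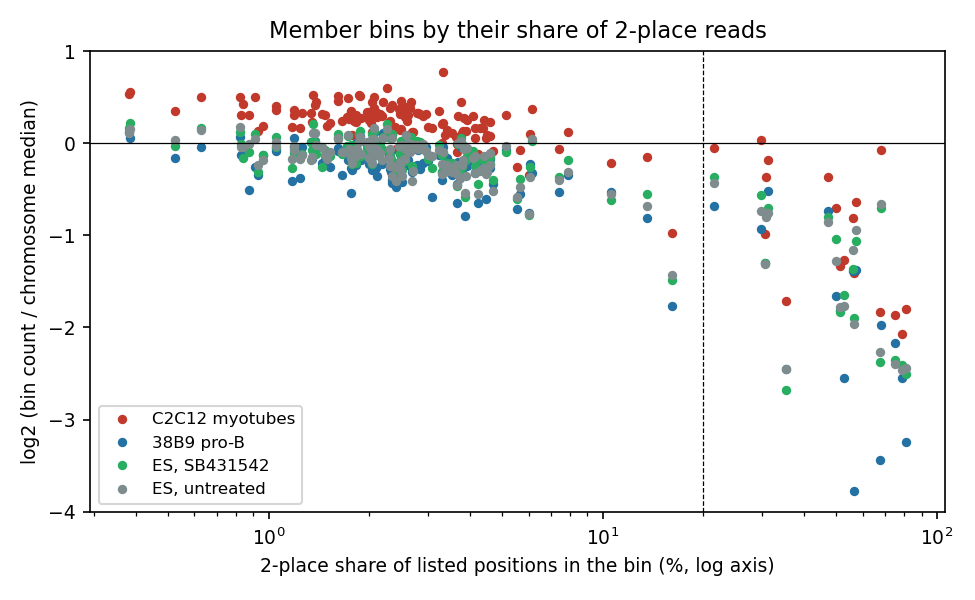
Values of the 154 members against the share of 2-place positions in the bin (percent, log axis), with 1 point per library and a dashed line at 20%. Left of the line lie the 136 bins with myotube values mostly above 0, and right of it the 18 bins, with myotube values between -2.07 and 0.04 and lower values in the other libraries.

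Of the 8 members with the largest smallest difference, 5 were rich in 2-place reads. Bins with few positions carry more counting error, and the ranking does not allow for it. The bin chr12:104100001-104200000 held 165 positions in myotubes, 95 in pro-B cells, 90 in SB431542-treated and 103 in untreated ES cells, with a smallest difference of 0.74. In chr3:93800001-93900000 the counts were 154, 54, 100 and 101 in the same order, at a smallest difference of 0.64, and 81.0% of its positions were 2-place. Both bins thus held far fewer reads than the median bin of their chromosome in every library. On distal chromosome 4, chr4:146400001-146500000 held 531, 254, 383 and 339 positions with a smallest difference of 0.61, and chr4:144800001-144900000 held 492, 123, 347 and 355 with 0.60. The fifth, chr13:61900001-62000000, held 207, 38, 159 and 147 positions, which gives myotubes a difference of 2.38 to pro-B cells and 0.49 to the SB431542-treated ES cells, its closest library. In all of these bins but the one on chromosome 12 the pro-B library was furthest below, and in that one it was the SB431542-treated ES library.

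With 2-place reads added to the count, the smallest difference was 0.37 in the chromosome 3 bin, 0.37 in the chromosome 4 bin from 144800001 and 0.15 in the chromosome 13 bin, which is then no member. It was 0.46 in the chromosome 4 bin from 146400001 and 0.78 in the chromosome 12 bin. The remaining 2 of the 8, besides a bin on chromosome 17, had under 20% of 2-place positions. They were chr1:185500001-185600000 with 713 positions in myotubes, 447 in pro-B cells, 530 in SB431542-treated and 518 in untreated ES cells (0.47), and chr7:111200001-111300000 with 545, 450, 513 and 556 (0.47). The chromosome 7 bin stood out against a chromosome whose median bin was 400 in myotubes, 470 in pro-B cells, 556 in SB431542-treated and 564 in untreated ES cells. Scaled to all autosomal positions, its smallest difference was 0.05.

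The largest smallest difference of all, 0.82, belonged to chr17:60100001-60200000. This bin held 897 positions in myotubes, against 519 in pro-B cells, 457 in SB431542-treated and 448 in untreated ES cells, and 3.33% of its positions were 2-place. In steps of 10 kb the excess began and ended within 1 piece, next to pieces that were thinly covered in all 4 libraries. From 60120001 to 60130000 the counts were 26 in myotubes, 21 in pro-B cells, 23 in SB431542-treated and 25 in untreated ES cells, and in the next 10 kb they were 124, 72, 73 and 58. At the far side, 60220001 to 60230000 held 131, 74, 64 and 63 positions, and the 10 kb after it 31, 22, 43 and 34. All libraries thus changed level at both borders, and myotubes changed the most. In these 10 kb steps the elevated segment ran from 60130001 to 60230000 and crossed the border between 2 bins. Steps of 2 kb did not place the borders so sharply. In the same order of libraries, 60130001 to 60132000 held 18, 10, 19 and 7 positions, and 60228001 to 60230000 held 13, 10, 12 and 15. From 60124001 to 60128000 all 4 libraries held 0.

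Within this segment of 100 kb, whose borders were drawn after its values were seen, myotubes had 1148 positions, pro-B cells 632, SB431542-treated 571 and untreated ES cells 565. Relative to the chromosome's median bin this was 1.86 times the pro-B level (interval 1.68 to 2.05), 2.14 times the SB431542-treated level (1.94 to 2.37) and 2.17 times the untreated ES level (1.96 to 2.41). These ratios come from the reads that chose the bin and drew the borders, so they are a description, and the intervals do not allow for that choice. On the plus and minus strand alone the ratio to untreated ES cells was 2.19 and 2.15. In the 100 kb before the segment the ratio was 0.93 to pro-B cells, 1.33 to SB431542-treated and 1.25 to untreated ES cells, and in the 100 kb after it 0.95, 1.21 and 1.25. A smaller excess over both ES libraries was thus present at its sides. Of the 10 pieces of 10 kb in the segment, 9 had a myotube level at least 1.5 times that of the highest other library.

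**Figure D3:**
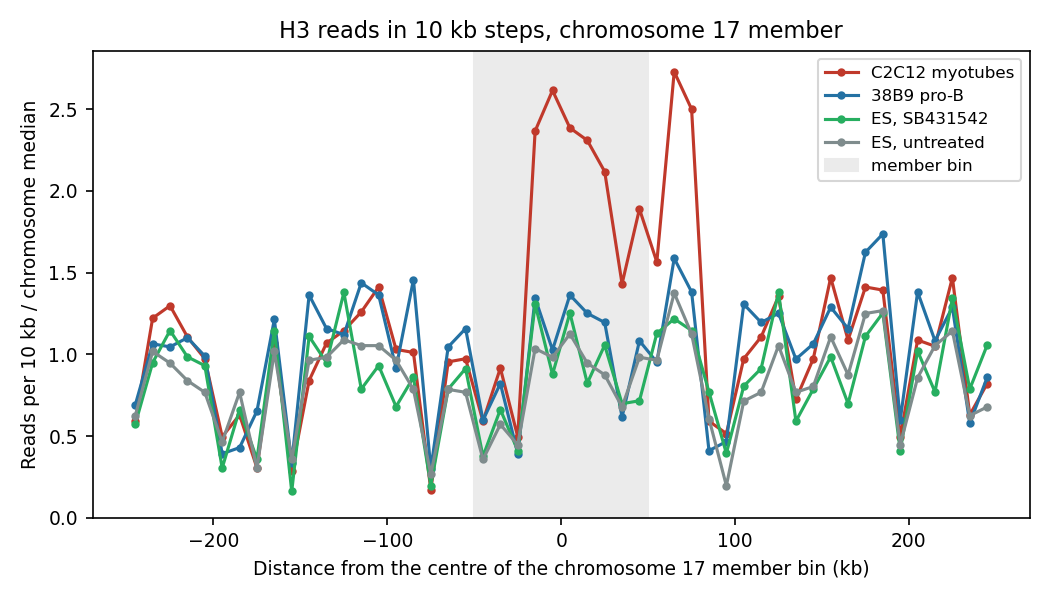
Reads per 10 kb, scaled so that the chromosome's median bin is at 1, against the distance from the centre of the chromosome 17 member bin (grey band), in the 4 libraries. The myotube line steps up inside the bin, stays above 1.4 over 10 pieces and returns to the other lines beyond the bin's right border.

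The members were mostly isolated. They fell into 132 runs of neighbouring bins, of which 111 were single bins, 20 were pairs and 1 held 3 bins. Bins higher in pro-B cells, called by the same rule, fell into 1624 runs of up to 36 bins, and 80.4% of them had a called neighbour, against 27.9% of the members. The rule called 18.5% of all bins higher in pro-B cells and 0.696% as members, so the 2 shares are not set alike. Bins lower in myotubes, 1.43% of all bins, fell into 263 runs of up to 4 bins, and 30.0% of them had a called neighbour. Each share with a called neighbour was above the share of bins called. No test was made of these differences. The threshold limits the length of runs, and the wider rise around members is described below. The label of broad domains thus does not describe runs of members, and they are called bins here.

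The longest run was chr17:81300001-81600000, with 2215 positions in myotubes, 1601 in pro-B cells, 1878 in SB431542-treated and 1797 in untreated ES cells over its 3 bins. Its median values were 0.52, 0.00, 0.21 and 0.11 in the same order, so that all libraries but pro-B were above the chromosome's median there. The pairs with the largest differences were chr3:93800001-94000000, rich in 2-place reads, and chr1:185400001-185600000. In the second of these myotubes held 1385 positions, pro-B cells 902, SB431542-treated 1069 and untreated ES cells 1006. A pair at chr4:75700001-75900000 held 1472, 969, 1216 and 1176 positions, and one at chr11:38300001-38500000 held 1326, 886, 1108 and 1081. Pairs at chr13:71100001-71300000, chr2:27600001-27800000 and chr3:49900001-50100000 had median smallest differences between 0.37 and 0.38.

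The surroundings of these 8 runs were not alike. Around the chromosome 11 pair all 10 bins within 500 kb had their highest value in myotubes, and around the chromosome 1 pair all 7 bins considered did. Around chr13:71100001-71300000 it was 9 of 10. The 3-bin run on chromosome 17 and the pair on chromosome 2 had 5 of 10 such neighbours, the pairs at chr4:75700001-75900000 and chr3:49900001-50100000 had 7 of 10, and the other pair on chromosome 3 had 1 of 6. Of all bins considered, 24.8% had their highest value in myotubes, a share that the flanks of 7 runs exceeded and those of 1 did not. Members in the flanks were counted, and in these the rule itself puts myotubes highest. They were chr1:185800001-185900000 beside the chromosome 1 pair and chr4:76300001-76400000 beside the chromosome 4 pair.

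Across all members, neighbouring bins that were not members themselves shared part of the excess. At a distance of 100 kb, 211 of 243 such bins (86.8%) had their highest value in myotubes, where 24.8% of all bins considered did, and the median smallest difference was 0.16 beside -0.16 over all bins. At 300 kb the share was 67.5% and at 600 kb 54.4%, and it still stood at 38.5% at 1 Mb and 35.3% at 2 Mb. The median myotube value declined with distance, to 0.11 at 100 kb and 0.03 at 300 kb, while the pro-B value moved back more slowly, with -0.22 at 100 kb, -0.17 at 400 kb and -0.11 at 1 Mb. Both ES libraries stayed slightly below 0 within 1 Mb, at -0.09 with SB431542 and -0.15 without it at 100 kb. Neighbouring bins were not used by the rule, but they may share a domain, a copy number or a run of like sequence with the member.

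**Figure D4:**
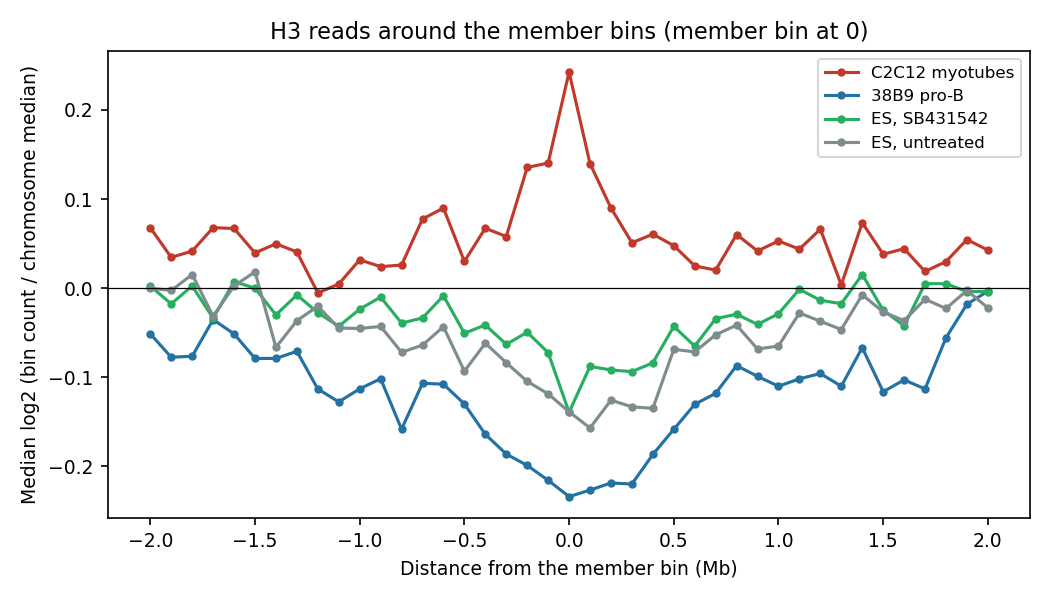
Median value in each library at the member bin (0) and at bins up to 2 Mb on either side, with members among the neighbours included. Myotubes rise to 0.24 at the member and come down within a few bins, and the pro-B line has a wide trough with its lowest point, -0.23, at the member.

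Stretches of neighbouring bins in which myotubes had the highest of the 4 values give a measure of this wider rise. The members lay in 105 such stretches with a median of 7 bins, and 35 of them (33.3%) had 10 or more bins. The 1936 stretches with no member had a median of 1 bin, and 50 (2.58%) had 10 or more. A long stretch has more chances to hold a member, so the lengths are a description. The longest, named after its values were seen, ran without a break over 57 bins at chr6:75300001-81000000 and held 3 members. Its median values were 0.12 in myotubes, -0.14 in pro-B cells, -0.10 in SB431542-treated and -0.18 in untreated ES cells. Others were 35 bins at chr19:49100001-52600000 with 5 members, 32 bins at chr11:36200001-39400000 with 3 and 29 bins at chr4:63100001-66000000 with 4.

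When members up to 5 bins apart were joined, 12 groups held 3 or more. The most members, 5, stood at chr4:77300001-78500000, where all 12 bins had their highest value in myotubes, and 4 each stood at chr4:63200001-64300000, chr11:110300001-111400000, chr12:90200001-90800000 and chr19:50200001-51300000. In the chromosome 12 group the median values were 0.39 in myotubes, -0.04 in pro-B cells, 0.08 in SB431542-treated and 0.02 in untreated ES cells. In the chromosome 4 group with 5 members they were 0.01, -0.24, -0.26 and -0.34, so that there the other libraries were low and myotubes were at the median. No member of these 12 groups was rich in 2-place reads.

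All 18 autosomes held at least 1 member, but unevenly. Chromosome 4 had the most, 20 of 1466 bins (1.36%), followed by chromosome 12 with 1.27%, chromosome 19 with 1.23% and chromosome 17 with 1.22%. Chromosome 18 had 1 of 877 bins (0.114%), chromosome 9 had 2 (0.167%) and chromosome 15 had 2 (0.199%). Chromosome 7 had 12 of 1280 bins (0.938%). Relative to all autosomal positions in place of the chromosome's median, 603 bins passed, of which 378 lay on chromosome 15 and 0 on chromosome 7. The median bins of these chromosomes held 682 and 400 positions in myotubes. Of the 154 members, 127 were among these 603 bins.

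Members were more frequent in the middle of the chromosomes than near the centromeric end. From 40% to 60% of the chromosome's length lay 49 of 154 (31.8%), against 20.6% of all bins considered, and in the first 20% lay 14 (9.09%), against 17.5%. The most distal 20% held 23.4% of the members, against 20.7%. Next to a bin with too few reads to be considered, or at the end of a chromosome, lay 11 members (7.14%), against 1.43% of all bins. With each bin set against the median of the bins within 5 Mb on either side, 126 bins passed, of which 66 were members (42.9% of the 154).

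Because the counts chose the bins, part of their excess is counting error that the choice picked up. To see how much was left in reads that took no part, bins were chosen by the same rule on plus-strand positions alone and measured on the minus strand, and the other way round. The plus strand chose 269 bins, of which 88 were members. On the minus strand, 267 of them could be measured and held 1.28 times the pro-B level (interval 1.26 to 1.29), 1.18 times the SB431542-treated level (1.17 to 1.19) and 1.20 times the untreated ES level (1.19 to 1.21). The ratios from bins chosen by the minus strand were 1.31, 1.18 and 1.20. Myotubes had the highest value in 88.8% of the bins on the minus strand and in 88.9% on the plus strand, against 24.3% and 24.4% of all bins there.

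The difference was thus present in the other strand, at a smaller size than in the reads that chose. Only 46 of the 269 bins (17.1%) passed the rule again on the minus strand, where it called 1.14% of all bins. Choosing by odd and measuring by even positions gave 46 of 256 (18.0%), with ratios of 1.28, 1.17 and 1.20. Among the 154 members all 154 had their highest value in myotubes on the plus strand, and all 151 that could be measured on the minus strand did there, but these reads took part in the choice. Both strands come from the same cultures and libraries, so this says nothing about how another culture would behave.

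Reads with 2 places were not used by the rule either, and they too were more frequent in myotubes over the members. Relative to the median bin of 2-place reads, the 154 members held 1.41 times the pro-B level (interval 1.37 to 1.47, 7532 against 5234 positions), 1.14 times the SB431542-treated level (1.10 to 1.18) and 1.12 times the untreated ES level (1.09 to 1.16). In the bins that were not members the same ratios were 0.913, 0.95 and 0.939. The 136 bins with under 20% of 2-place positions gave 1.26, 1.17 and 1.17, so the excess of 2-place reads was not limited to the 18 bins rich in such reads. These intervals are too narrow, since a read whose 2 places lie in the same bin is listed there at both.

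In 19 members with a mean of 50 or more 2-place positions, myotubes had the highest 2-place value in 14, against 14.7% of all such bins. Higher than every other library by 0.3 or more were 2 of the 19, against 1.62%. The largest such difference, 0.81, belonged to chr12:104100001-104200000, which held 100 positions of 2-place reads in myotubes, 43 in pro-B cells, 47 in SB431542-treated and 57 in untreated ES cells. In chr7:60100001-60200000, in contrast, myotubes were the lowest, with 120, 180, 179 and 164. Individual bins with many 2-place reads could thus differ in direction between the 2 sorts of read.

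**Figure D5:**
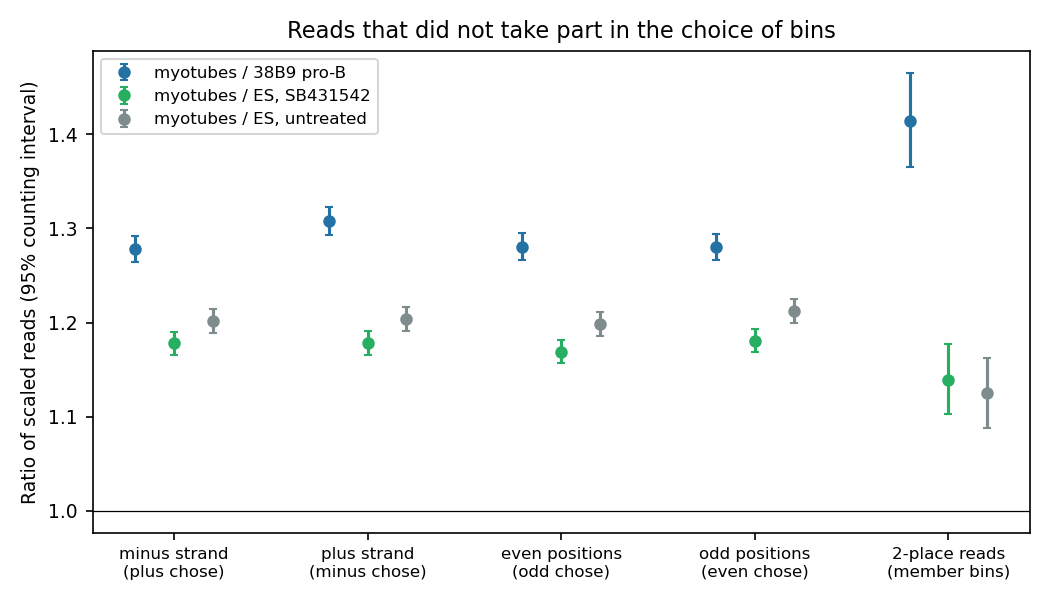
Ratio of scaled reads in myotubes to each other library (points) with 95% counting intervals (bars), in reads that did not choose the bins. The strand and odd or even position columns use the bins chosen by the other part of the reads, and the last column uses 2-place reads in the 154 members. All ratios lie above 1, from 1.12 to 1.41.

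The members were also looked at in smaller pieces, with the same reads that chose them, so that the counts that follow are a description. Each bin was divided into 10 pieces of 10 kb, and the myotube level was the highest of the 4 in 1229 of 1540 pieces (79.8%). In the bins that were not members it was the highest in 50321 of 219668 pieces (22.9%). A member had 4 to 10 such pieces with a median of 8, and 151 of 154 had 5 or more. The piece with the largest excess over the mean of the other libraries supplied a median of 19.8% of the bin's total excess. The largest of 10 pieces cannot supply less than 10%, and counting error raises its share. How evenly the excess was spread was therefore not tested. In 1 member the top piece supplied over 50%. On the 18 chromosomes there were 2330346 windows of 1 kb. In 38 of them myotubes had at least 20 positions and 3 times the scaled count of every other library. Of these 38, 3 lay inside members, all in 1 member, where members were 0.696% of the bins considered.

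Reads that repeated an earlier position on its strand were 3.28% of the myotube reads in members (interval 3.17 to 3.39) and 3.44% outside. They made up 2.20% in pro-B cells, 5.19% in SB431542-treated and 2.49% in untreated ES cells inside members, against 2.83%, 5.52% and 2.83% outside. Each library thus had somewhat fewer repeats in members than elsewhere. Plus-strand positions were 49.96% of the myotube positions in members (49.63 to 50.28), and between 50.0% and 50.5% in the other libraries.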

How the data were processed

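Total H3 ChIP-seq was analysed in 4 mouse libraries. Per the labels' protocols, sonicated whole cell extracts were precipitated with antibody AB1791, DNA was amplified by 18 cycles of PCR and inserts of 50 to 200 nt were taken from a gel. Per the file headers, the authors aligned reads to mm8 with Bowtie (-e 70 -k 2 -m 2 -n 2 -l 36, the sources used here give no version). The deposited files list 1 signed position per read with no count or scaling, in a section read here as reads with 1 place and another read as reads with 2 places, an inference from the section names and options.

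Reads repeating a position on the same strand were counted once (Python 3.11.15, numpy 2.4.6, pandas 2.3.3, scipy 1.17.1), 1-place reads were counted in 100 kb bins, and the rule given in the text was applied. When 1 strand, or odd or even positions, chose bins, the minimum mean count was 50. Ratios carry exact conditional binomial intervals. Named are the 8 longest runs, the 8 bins with the largest smallest difference and 3 bins on each side of the threshold. The calls were checked on simulated data with a rise larger than the smallest difference of most members. Bins with few reads were not raised in it. The check thus does not cover calls near the threshold or at low counts. Members and descriptions were chosen with earlier results of these data known. Scaling, threshold, coverage, bin size, libraries and reads were varied.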

Additional observations from a re-analysis of the deposited data

How the results depend on the processing

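Under the alternatives 127 values were recomputed. Of these, 109 moved by no more than their counting interval, or by no more than 1.5-fold for numbers of bins or runs. The other 18 moved further. The counting interval is wide for bins with few positions, and the alternatives mostly use the same reads, so it only measures size. The chromosome 3 bin from 93800001, for one, went from 0.64 to 0.37 with 2-place reads added and is among the 109. Most of the values, 95, came from the 8 bins with the largest differences, and 91 of these are among the 109. Some of them could not move, since leaving out a library other than the closest keeps the smallest difference as it was. Leaving out chromosomes 7 and 15, or the bins with 20% or more 2-place positions, also cannot move the values of the bins that remain. Numbers and shares of bins have no direction, and 0 of the ratios and differences changed direction. The 154 members became 826, 24 and 5 with differences of 0.2, 0.4 and 0.5, 552 in bins of 50 kb, 58 in bins of 200 kb and 603 with scaling to all autosomal positions. They became 461 without the SB431542 library, 269 without the untreated ES library and 335 without the pro-B library, since fewer libraries have to be exceeded. Between 126 and 217 bins passed under the other settings, among them minimum mean counts of 50 and 300, all reads as deposited, the mean bin or the local median as the scale, bins shifted by 50 kb, and 2-place reads added. Like numbers were not always the same bins. Of the 154 members, 66 were among the 126 bins with the local median and 119 among the 153 with 2-place reads added. Under the rest of these settings 138 to 154 stayed, except that shifted bins were not compared. Limiting the bins to those with under 20% of 2-place positions, chosen after seeing the data, gave 136. The 132 runs became 576 with a difference of 0.2. Scaling to autosomal totals gave 2-place ratios of 1.5 to pro-B cells, 1.20 to ES cells with SB431542 and 1.19 to those without. The strand ratio to pro-B cells was 1.31 with the minus strand choosing. Causes were not tested unless the alternative's own construction sets them. For the 8 bins with the largest differences, 2 of 95 values fell below 0.3 (lowest 0.05). No paired analysis was possible because each group had 1 library. Depth limits the bins with few positions most, since the fewest positions of a median bin were 400 and members went down to a mean of 102.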
